A study of Mus musculus with 16 samples.

Results

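The response to dexamethasone (DEX) was examined across 16 libraries of polyA RNA from the dorsal raphe nucleus (DRN), by setting all 8 DEX libraries against all 8 saline libraries with phenotype as a blocking factor. The libraries were chosen by the treatment in their titles, and they are all of the libraries of the series that were analyzed here. Animals were male C57BL/6 mice of 3 phenotypes. Control mice had not been defeated and were housed alone before the experiment. The others had been defeated by aggressors daily in a chronic paradigm of 30 days and were sorted, by clustering of their behavior, into a group with passive coping (PS) and one with active coping (AS). The saline arm held 3 control, 2 PS and 3 AS libraries, and the DEX arm held 3 control, 3 PS and 2 AS libraries. Each library came from 1 mouse, which received DEX at 2 mg/kg or saline 6 h before the tissue was taken as punches from cryosections. The study applied a lower limit on Tph2, the gene of the serotonin-synthesizing enzyme, to its DRN samples, and the samples that it removed were from DEX-treated PS and AS mice. It describes further DRN libraries, which were not analyzed here.

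DEX is a synthetic glucocorticoid that binds the glucocorticoid receptor, a transcription factor encoded by Nr3c1. The bound receptor enters the nucleus, raises genes that carry its response elements and lowers others, in many cases by interfering with other transcription factors or as a later consequence of the first changes. The DRN holds most of the serotonin neurons that project to the forebrain, and a punch of it also contains other neurons, oligodendrocytes and the axons they myelinate, astrocytes, microglia, vessels and, at the midline, the ependymal lining of the ventricle.

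Libraries held between 38207157 and 62447298 reads in the 14504 listed genes. Values are normalized counts, and fold changes are DEX minus saline on the scale of log2(normalized count + 1), estimated with limma and given with the standard error (SE). Genes whose Benjamini-Hochberg adjusted p was below 0.1 were called. Tph2 ranged from 103435 to 182191 normalized counts (median 121996) with saline and from 91764 to 161346 (median 107505) with DEX. The study had removed samples low in Tph2, so these levels are no separate check of the tissue label. Among the libraries kept, the arms of Tph2 overlapped and it was not called (log2 fold change -0.16, SE 0.14, adjusted p 0.59). A list of 37 glucocorticoid targets separated the treatments. Its list scores (the mean log2 deviation of the members from their own means) were -0.58 to -0.42 with saline and 0.35 to 0.61 with DEX. The list was chosen with earlier results of these data known, so its score is no separate check of the treatment. Ependymal markers varied most between libraries, with scores of -0.77 to 1.0 with saline and -2.24 to 1.62 with DEX.

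The pooled comparison called 711 of 14504 genes (4.9%), of which 446 were higher (3.08%) and 265 lower (1.83%) after DEX. At an unadjusted p under 0.05 there were 2245 genes (15.5%). The count of lower genes was 164 without AS_dex replicate 42 and 174 without 1 of the control DEX libraries. The lower changes were smaller: their median size was 0.42 on the log2 scale against 0.53 for the higher genes, 18 of them reached a size of 1 against 64, and none reached 2 against 17. Protein coding genes made up 95.1% of the lower and of the higher genes and 85.4% of all genes. The longest transcript of the lower genes had a median of 3019 bases, against 4239.5 for the higher genes and 3135 for all genes, and their median level was 895 normalized counts, against 1396 and 1180.2. The strongest fall was that of Opalin and the strongest rise that of the lipid droplet gene Plin4 (-1.71 and 4.38). All 8 DEX libraries lay below all 8 saline libraries for 72 of the lower genes, and 74 of all genes showed that order (0.51%). The reverse order held for 198 of the higher genes, which were all the genes that showed it (1.37%).

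Of the 711 pooled calls, 510 (71.7% of them, 3.52% of all genes) were not made in any single phenotype, in contrasts that share these libraries. Within controls 145 genes were higher (1%) and 38 lower (0.262%), within PS mice 84 (0.579%) and 18 (0.124%), and within AS mice 78 (0.538%) and 22 (0.152%). Of the lower genes, 218 (82.3%) were called in none of the 3 contrasts and only by the pooled one (1.5% of all genes), and 6 were called in all 3. Of the higher genes, 292 (65.5%) were called in none (2.01% of all genes) and 51 in all 3. The median SE was 0.10 in the pooled fit against 0.17 in controls and 0.19 in PS and in AS mice. Genes that only the pooled comparison called had a median change of -23.2% when lower and 33.2% when higher, against -34.4% and 60.6% for those called in at least 1 phenotype. In the other direction, 21 genes were called in a phenotype and missed by the pooled fit. These counts belong to the limma fits used here. With DESeq2 on the recovered reads, 531 of 982 pooled calls were made in no single phenotype. The study's own DESeq2 contrasts, which drew on further DRN libraries, called more genes within each phenotype. The study names Pdgfra, Igf1r and Grin2c, called here only in the pooled fit, among its DRN genes that changed with DEX.

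**Figure D1:**
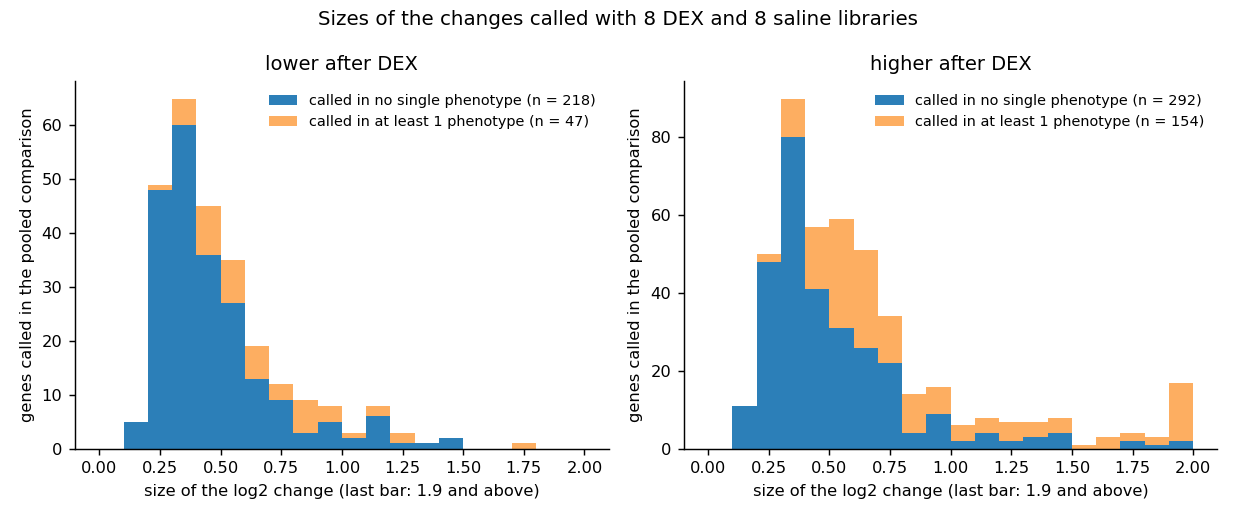
Histograms of the size of the pooled log2 change (x axis, last bar 1.9 and above) of the 265 genes called lower (left) and the 446 called higher (right), with the number of genes on the y axis. Blue marks genes that no single phenotype called (218 and 292), which fill most of the bars under a size of 0.5, and orange those that at least 1 phenotype called (47 and 154).

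The pooled changes ran in the same direction in controls, PS and AS mice for 263 of the 265 lower and 445 of the 446 higher genes. These figures share libraries with the calls, so the reading was repeated with separate animals. Of the 85 genes called lower in PS and AS mice without the controls (0.586%), 83 (97.6%) were also below 0 in controls, where 49.3% of all genes were. Of the 111 called lower without PS mice (0.765%), 106 (95.5%) were below 0 in PS mice, and of the 117 called lower without AS mice (0.807%), 108 (92.3%) were below 0 in AS mice. Over all genes the shares were 51.1% and 50.9%. The median log2 change of these genes was -0.67, -0.62 and -0.55 in the libraries that made the calls and -0.58, -0.49 and -0.50 in the phenotype left out. The higher genes read the same way in 210 of 212 (1.46%), 247 of 249 (1.72%) and 274 of 286 (1.97%). A test of whether the DEX effect differed between phenotypes (limma F test of the interaction) called 0 of 14504 genes (0%), with 319 (2.2%) at an unadjusted p under 0.05, and 22 of the 711 pooled calls were among these.

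Genes of oligodendrocytes led the fall. Oligodendrocytes wrap axons in myelin and are joined to each other and to astrocytes by gap junctions. Opalin, which encodes a membrane protein of the inner loops and paranodes of myelin (ENSMUSG00000050121.9, GRCm38 chromosome 19, 41061710 to 41077113), ranged from 592 to 1053 normalized counts (median 803) with saline and from 137 to 306 (median 249.7) with DEX. The arms did not overlap, and the DEX median was under every saline library by a wide margin. The change (log2 fold change -1.71, SE 0.15, adjusted p 2.6e-06) was -1.69 (controls), -1.81 (PS) and -1.64 (AS). Pllp, the gene of the myelin proteolipid plasmolipin (ENSMUSG00000031775.5, GRCm38 chromosome 8, 94674894 to 94696278), had the smallest p of all lower genes and ranged from 1569.7 to 2378 normalized counts (median 1917) with saline and from 677 to 1009.6 (median 879.5) with DEX. Every DEX library was again below every saline library (log2 fold change -1.15, SE 0.095, adjusted p 1.12e-06). Car2, a carbonic anhydrase that in brain is abundant in oligodendrocytes, ranged from 3239 to 5270.5 normalized counts (median 4263) with saline and from 1919.7 to 2824 (median 2113) with DEX, also without overlap (log2 fold change -0.93, SE 0.094, adjusted p 1.14e-05). Lgi4, a secreted protein required for myelination of peripheral nerve, fell too. It was 1275 to 1554 (median 1385) with saline and 803 to 1093 (median 883) with DEX (log2 fold change -0.64, SE 0.068, adjusted p 1.87e-05), the saline libraries all lying above. Pllp, Car2 and Lgi4 lay outside the oligodendrocyte lists used below. Which cells of the punch carried the fall of Lgi4 was not tested.

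**Figure D2:**
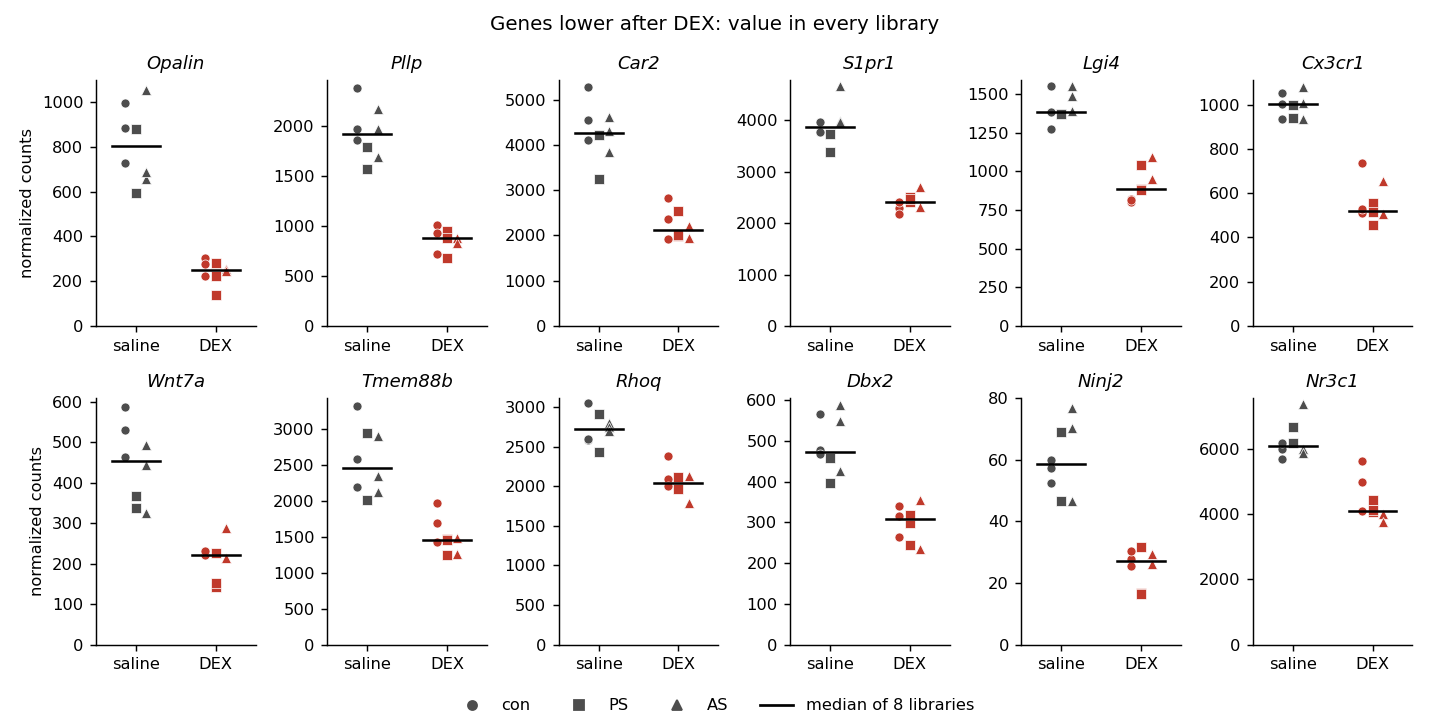
Normalized counts (y axes, linear from 0) of 12 genes lower after DEX, in each of the 8 saline and 8 DEX libraries (x axis), with circles for controls, squares for PS and triangles for AS mice and a bar at the median. In all of these panels the 8 DEX libraries lie below the 8 saline libraries, by a wide gap for Opalin and Pllp and narrowly for Nr3c1, Rhoq and Tmem88b.

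Within the myelin list the fall was uneven. Of 25 members measured, 13 fell, 1 rose and 11 did not pass, where 1.83% of all genes were called lower and 3.08% higher. The list median was -0.37, and the median of all genes was -0.0021. Within phenotypes the list median was -0.29 (controls), -0.38 (PS) and -0.41 (AS). Besides Opalin, the members that fell included Gjb1, a connexin of oligodendrocytes. It ranged from 294 to 574 normalized counts (median 488) with saline and from 150.0 to 406 (median 194) with DEX (log2 fold change -1.11, SE 0.19, adjusted p 0.00168). It overlapped through 1 control DEX library at 406 normalized counts, where the next highest DEX library had 239. Aspa, the aspartoacylase that frees acetate for lipid synthesis, fell by 0.98 and Ugt8a, which makes the myelin lipid galactosylceramide, fell by 0.84 (adjusted p 0.00818 and 0.00234). The homeobox factor Nkx6-2, which promotes oligodendrocyte maturation, ranged from 1118 to 1847 normalized counts (median 1453) with saline and from 695 to 1165 (median 832) with DEX and overlapped through 1 AS library with DEX (log2 fold change -0.74, SE 0.092, adjusted p 8.7e-05). Gpr37, an orphan receptor of maturing oligodendrocytes, ranged from 2466 to 3629.9 normalized counts (median 2860.2) with saline and from 1616 to 2227 (median 1888) with DEX with no overlap (log2 fold change -0.67, SE 0.086, adjusted p 0.000135). Smaller falls were those of Ermn, Fa2h, Mag, Mog, Cnp and Cryab, from -0.61 to -0.37.

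Mbp and Mobp, which encode structural proteins of myelin, were not among the members called. The log2 fold change was -0.12 (SE 0.11, adjusted p 0.6) for Mbp and 0.16 (SE 0.11, adjusted p 0.501) for Mobp. A p above the threshold does not show that these genes were unchanged. Hapln2, a link protein of the matrix at nodes of Ranvier, was the member that rose (log2 fold change 0.35, SE 0.11, adjusted p 0.0915), and no member was higher when any of 12 libraries was left out. In bulk tissue, fewer oligodendrocytes and less RNA per oligodendrocyte cannot be told apart, and the summed level of the list was 163571 to 262027 normalized counts with saline and 155978 to 218190 with DEX. With the score of this list as a covariate 156 genes were called, 124 higher and 32 lower (20.5% lower, against 37.3% without it). The score contains the genes that fell and itself differed between the arms, so what part the oligodendrocyte content of the punches has in the calls was not tested.

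Genes of oligodendrocyte precursors moved in both directions. Of 13 members measured, 3 rose, namely the sialidase gene Neu4, the growth factor receptor Pdgfra and the proteoglycan Vcan, and 1 fell, Sox10, the lineage factor that mature cells keep. Neu4 ranged from 437 to 572 normalized counts (median 496) with saline and from 638 to 905 (median 749) with DEX without overlap (log2 fold change 0.64, SE 0.085, adjusted p 0.000192). Pdgfra, the defining receptor of these cells, ranged from 1841 to 2513 normalized counts (median 2218) with saline and from 2381 to 2972 (median 2679) with DEX with overlap (log2 fold change 0.31, SE 0.063, adjusted p 0.0083). The limma contrasts used here called Pdgfra in no single phenotype. Sox10 ranged from 1065 to 1797 normalized counts (median 1468) with saline and from 779.8 to 1198 (median 1025) with DEX, and its arms also overlapped (log2 fold change -0.45, SE 0.11, adjusted p 0.0317). The list median was -0.021, and over all genes 3.08% were called higher and 1.83% lower.

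**Figure D3:**
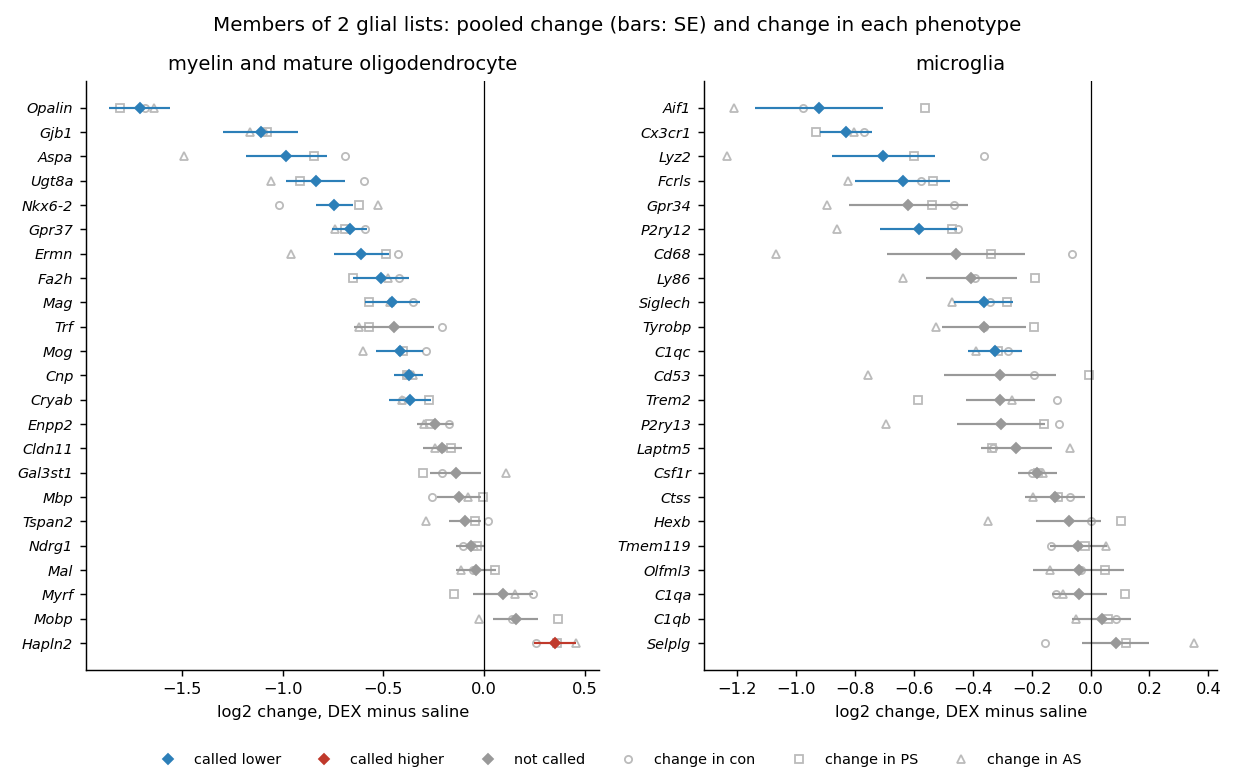
Log2 change (x axis, DEX minus saline) of measured members of the myelin list (left, 23 of its 25 genes) and of the microglia list (right, all 23 genes), sorted by size. Diamonds with bars give the pooled change and its SE, blue where called lower and red where called higher, and open symbols the change within controls, PS and AS mice. Opalin and Gjb1 lie beyond -1 while Mal lies near 0.

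Microglial genes were lower as well. Microglia are the resident macrophages of the brain, and glucocorticoids are known to restrain them. Of 23 members measured, 7 fell and none rose, 6 of the 7 in no single phenotype, and the list median was -0.31. Within phenotypes the list median was -0.20 (controls), -0.19 (PS) and -0.47 (AS). The share called lower over all genes was 1.83%. Without AS_dex replicate 42 there were 4 lower members. Cx3cr1, the receptor for the neuronal chemokine fractalkine (ENSMUSG00000052336.7, GRCm38 chromosome 9, 119901616 to 120069879), ranged from 937 to 1082 normalized counts (median 1002) with saline and from 458 to 738 (median 521) with DEX. The saline libraries were tightly grouped and all lay above the DEX libraries (log2 fold change -0.83, SE 0.089, adjusted p 1.87e-05), with changes of -0.77 (controls), -0.93 (PS) and -0.80 (AS). P2ry12, the ADP receptor that guides microglial processes, ranged from 342 to 759 normalized counts (median 446) with saline and from 265 to 376 (median 301) with DEX. Its arms overlapped (log2 fold change -0.58, SE 0.13, adjusted p 0.0166). Aif1, the calcium-binding protein known as Iba1, was a low gene that ranged from 55.5 to 119.9 normalized counts (median 84.1) with saline and from 29.3 to 70.1 (median 46.6) with DEX (log2 fold change -0.92, SE 0.22, adjusted p 0.0235), and the lysozyme gene Lyz2 ranged from 99.8 to 173 normalized counts (median 138) with saline and from 55.6 to 126 (median 90.3) with DEX (log2 fold change -0.70, SE 0.18, adjusted p 0.0323). Both overlapped, with the DEX medians below every saline library. The calls of P2ry12, Aif1 and Lyz2 were lost without AS mice. Those of P2ry12 and Aif1 were also lost without controls, and those of P2ry12 and Lyz2 without PS mice. The other members that fell were Fcrls, Siglech and C1qc, at -0.64, -0.36 and -0.32.

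Other microglial genes did not pass. The colony-stimulating factor receptor Csf1r changed by -0.18 (adjusted p 0.195), Tmem119 by -0.042 (adjusted p 0.857) and C1qa by -0.038 (adjusted p 0.865). The list score was separated between arms, at 0.023 to 0.56 with saline and -0.31 to -0.086 with DEX, with summed levels of 13156 to 19896 normalized counts with saline and 11695 to 13719.7 with DEX. Kcnk13, the gene of a leak potassium channel found in microglia, lay outside the list and also fell. It ranged from 188 to 315 normalized counts (median 267) with saline and from 82.3 to 216 (median 105) with DEX, and the overlap came from 1 control library in each arm (log2 fold change -1.21, SE 0.18, adjusted p 0.00049).

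Signaling genes with roles in glial and vascular development were also among the lower genes. Wnt7a, a secreted Wnt ligand made by glial and neural precursors that acts on brain vessels, ranged from 325 to 586 normalized counts (median 454) with saline and from 142 to 289 (median 222) with DEX. The arms did not overlap (log2 fold change -1.02, SE 0.13, adjusted p 0.000126). Its relative Wnt7b ranged from 733 to 1016 normalized counts (median 896) with saline and from 514 to 683 (median 555) with DEX, also without overlap (log2 fold change -0.61, SE 0.094, adjusted p 0.000733). The notch target Hey1 (-0.37) and Wnt5a (-0.45) fell too. In the list of Wnt, BMP, TGF-beta and Notch genes 4 of 34 members were lower and 3 higher. The shares over all genes were 1.83% and 3.08%. The 3 that rose were the Wnt receptors Fzd2, which ranged from 459 to 776 normalized counts (median 531) with saline and from 1037 to 1511 (median 1284) with DEX without overlap (log2 fold change 1.23, SE 0.10, adjusted p 8.43e-07), and Lrp6 (0.30) and the receptor Notch2 (0.74).

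Receptors for growth and lipid signals changed as well. S1pr1, a sphingosine-1-phosphate receptor of astrocytes and endothelium, ranged from 3374 to 4661 normalized counts (median 3867) with saline and from 2184 to 2697 (median 2406) with DEX. No DEX library reached the lowest saline library (log2 fold change -0.68, SE 0.058, adjusted p 1.66e-06). Fgfr2, a fibroblast growth factor receptor of the oligodendrocyte lineage, ranged from 1192 to 1770.4 normalized counts (median 1347) with saline and from 633 to 917 (median 808) with DEX, again without overlap (log2 fold change -0.84, SE 0.10, adjusted p 6.71e-05). Its ligand gene Fgf2 moved the other way, ranging from 337 to 499.9 normalized counts (median 452) with saline and from 587 to 1046 (median 804) with DEX with no overlap (log2 fold change 0.87, SE 0.11, adjusted p 8.62e-05), as did Fgfr3 (log2 fold change 0.54, SE 0.092, adjusted p 0.00177), a receptor of astrocytes. Tyro3, a receptor kinase of the TAM family, ranged from 2726 to 3208 normalized counts (median 3061) with saline and from 1887 to 2441 (median 2019) with DEX without overlap (log2 fold change -0.54, SE 0.064, adjusted p 5.48e-05), and its family member Mertk rose (1.55, adjusted p 3.16e-07). Arhgef19, an exchange factor for small GTPases, ranged from 463 to 765 normalized counts (median 664) with saline and from 268 to 412 (median 299) with DEX and did not overlap (log2 fold change -0.90, SE 0.11, adjusted p 6.74e-05).

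Genes of proliferation and matrix turnover had single members that fell, where 1.83% of all genes were called lower. Ccnd1, the gene of cyclin D1, ranged from 906 to 1239.6 normalized counts (median 1113) with saline and from 516 to 888 (median 679.9) with DEX. The highest DEX library was just under the lowest saline library (log2 fold change -0.60, SE 0.10, adjusted p 0.00118), and it was the 1 called member of 8 in the cell cycle list. Mmp14, a membrane-bound metalloproteinase, ranged from 542 to 700.2 normalized counts (median 589) with saline and from 336 to 479.9 (median 419) with DEX without overlap (log2 fold change -0.51, SE 0.081, adjusted p 0.000991). Insc, an adaptor of spindle orientation, ranged from 115.9 to 190.2 normalized counts (median 158) with saline and from 31.7 to 96.0 (median 69.2) with DEX, and its arms did not overlap (log2 fold change -1.21, SE 0.17, adjusted p 0.000261). The protease inhibitor gene Serpinb1a ranged from 276 to 485 normalized counts (median 348) with saline and from 69.5 to 315 (median 142) with DEX with overlap (log2 fold change -1.26, SE 0.33, adjusted p 0.041). The processed pseudogene Gm13292, whose reads may belong to a parent gene, ranged from 22.98 to 531 normalized counts (median 269) with saline and from 38.4 to 212 (median 63.7) with DEX (log2 fold change -1.42, SE 0.40, adjusted p 0.0678). Both had large falls with wide errors. The call of Gm13292 was lost without 1 library in 11 of the 16 cases and that of Serpinb1a without AS_dex replicate 42, and edgeR did not call Serpinb1a (adjusted p 0.109).

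The receptors that bind DEX and corticosterone were lower. Nr3c1, the glucocorticoid receptor gene, ranged from 5704 to 7386 normalized counts (median 6101) with saline and from 3759.7 to 5624 (median 4109) with DEX. The arms were separated by a narrow gap, the highest DEX library being a control. The pooled change (log2 fold change -0.52, SE 0.081, adjusted p 0.000778) was made up of -0.29 (controls), -0.61 (PS) and -0.72 (AS). Nr3c2, the mineralocorticoid receptor gene, ranged from 1323 to 1913 normalized counts (median 1815) with saline and from 1234 to 1555 (median 1321) with DEX with overlap (log2 fold change -0.34, SE 0.085, adjusted p 0.0327), and its changes were -0.16 (controls), -0.45 (PS) and -0.46 (AS). That call was lost without AS_dex replicate 42 (adjusted p 0.102). Fkbp4, a cochaperone that helps the receptor into the nucleus, ranged from 7801 to 12288 normalized counts (median 8881) with saline and from 5899 to 8810.3 (median 7528) with DEX (log2 fold change -0.30, SE 0.081, adjusted p 0.0553). The arms overlapped, and that call was lost without any of 4 libraries. Fkbp5, which hinders the receptor and is a target of it, ranged from 1241 to 1536 normalized counts (median 1352) with saline and from 5578 to 6958 (median 6051) with DEX. Its arms were far apart, in the opposite direction (log2 fold change 2.15, SE 0.059, adjusted p 1.08e-12). Of 13 members of the list of corticosteroid receptors and the CRH system, 3 fell and none rose, against 1.83% of all genes called lower. Without AS_dex replicate 42, 1 member was lower. With the myelin score as a covariate in limma, the adjusted p was 0.127 for Nr3c1, 0.73 for Nr3c2 and 0.74 for Fkbp4. No member was lower in that fit. That score differed between the arms, so the part of oligodendrocyte content in these falls was not tested.

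The 10 genes with the smallest p among those lower in no single phenotype are described next. Their smallest adjusted p within any phenotype lay between 0.108 and 0.188, above the threshold, and all 10 kept their call with each library left out in turn. With the myelin score as a covariate in limma, Tmem88b, Rhoq, C030029H02Rik, Slco1c1, Gjb1, Gm13293 and Cmtm5 lost the call (adjusted p 0.29 to 0.72). That score holds Gjb1 itself and differed between the arms, so the part of oligodendrocyte content in these falls was not tested. Tmem88b, a membrane protein gene (ENSMUSG00000073680.2, GRCm38 chromosome 4, 155781591 to 155785874), ranged from 2015 to 3331 normalized counts (median 2466) with saline and from 1254 to 1975 (median 1461) with DEX. The arms just failed to meet (log2 fold change -0.76, SE 0.11, adjusted p 0.000339), and the change was -0.66 (controls), -0.81 (PS) and -0.83 (AS). Rhoq, a small GTPase of vesicle traffic (ENSMUSG00000024143.15, GRCm38 chromosome 17, 86963082 to 87000069), ranged from 2440.2 to 3053 normalized counts (median 2730.4) with saline and from 1788 to 2388 (median 2048) with DEX. This fall was near the median size of the lower genes and still left no overlap (log2 fold change -0.41, SE 0.063, adjusted p 0.000778), with -0.35 (controls), -0.39 (PS) and -0.50 (AS).

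Dbx2, a homeobox transcription factor, ranged from 396 to 588 normalized counts (median 473) with saline and from 235 to 355 (median 307) with DEX, without overlap (log2 fold change -0.71, SE 0.11, adjusted p 0.000925). Ninj2, an adhesion molecule of glia, was a low gene that ranged from 46.7 to 77.0 normalized counts (median 58.8) with saline and from 16.3 to 31.7 (median 27.1) with DEX, and its arms were also separate (log2 fold change -1.18, SE 0.19, adjusted p 0.00102). The other 2 without overlap were Cmtm5, a membrane protein gene of the MARVEL family, and the long noncoding RNA C030029H02Rik. Cmtm5 ranged from 1237 to 1812 normalized counts (median 1563) with saline and from 739 to 1219.7 (median 1012) with DEX (log2 fold change -0.57, SE 0.10, adjusted p 0.00198). C030029H02Rik ranged from 126 to 231 normalized counts (median 157) with saline and from 65.5 to 105 (median 76.3) with DEX (log2 fold change -0.98, SE 0.16, adjusted p 0.0011).

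The other 4 of the 10 had overlapping arms. Lrrk1, a kinase related to the Parkinson disease kinase of the same family, ranged from 1285 to 2259 normalized counts (median 1802) with saline and from 895 to 1294 (median 1082) with DEX (log2 fold change -0.72, SE 0.11, adjusted p 0.000893). Slco1c1, a thyroid hormone transporter of the blood-brain barrier and astrocytes, ranged from 1034 to 1640.1 normalized counts (median 1423) with saline and from 809.6 to 1077 (median 911) with DEX (log2 fold change -0.54, SE 0.09, adjusted p 0.00142). In both the overlap was small, the highest DEX library lying just above the lowest saline library. The long noncoding RNA Gm13293 ranged from 53.6 to 130.01 normalized counts (median 101.7) with saline and from 29.6 to 59.3 (median 40.9) with DEX (log2 fold change -1.13, SE 0.19, adjusted p 0.00174), and the fourth, the connexin Gjb1, is given above.

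Among serotonergic genes 4 of 22 fell and 1 rose, and the enzyme and transporter that define the neurons did not pass. Over all genes 1.83% were called lower and 3.08% higher. Slc6a4, the serotonin transporter gene, changed by -0.056 (adjusted p 0.83). Slc22a3, a low-affinity transporter that also clears monoamines, ranged from 2435 to 4747 normalized counts (median 3744) with saline and from 2239 to 2986 (median 2560.3) with DEX. Its arms overlapped (log2 fold change -0.51, SE 0.11, adjusted p 0.0136). Qdpr, which regenerates the cofactor of Tph2, ranged from 9035 to 14077 normalized counts (median 10711) with saline and from 7482 to 11364 (median 8274) with DEX (log2 fold change -0.34, SE 0.088, adjusted p 0.0391). Htr1a, the inhibitory autoreceptor gene, ranged from 5449.6 to 7072 normalized counts (median 5995) with saline and from 4674 to 6124 (median 5036) with DEX (log2 fold change -0.24, SE 0.065, adjusted p 0.0537), and the arms of both overlapped. Htr5b, a further serotonin receptor gene, changed by -0.69 (adjusted p 0.0662). Against these, Htr1d, another autoreceptor gene, ranged from 600.2 to 976 normalized counts (median 852) with saline and from 1429.6 to 1648 (median 1526) with DEX. No saline library reached the DEX libraries (log2 fold change 0.87, SE 0.083, adjusted p 5.28e-06). The calls of Qdpr and Htr1a were lost without AS_dex replicate 42 (adjusted p 0.111 and 0.154). Without that library 1 of the 22 genes was lower, and 2 were without PS_sal replicate 62 or 1 of the control DEX libraries. With the myelin score as a covariate in limma, the adjusted p was 0.82 for Qdpr and 0.39 for Htr1a. Which cells of the punch carried these changes was not tested.

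Clock genes split by direction. Dbp, an output factor of the circadian clock, ranged from 2736 to 4113 normalized counts (median 3116) with saline and from 1760.2 to 2692 (median 2145) with DEX with no overlap (log2 fold change -0.56, SE 0.09, adjusted p 0.00118), and Bhlhe40, a repressor of the clock, changed by -0.26 (adjusted p 0.0606), a call lost without any of 10 libraries. Per1, a clock repressor gene that carries a glucocorticoid response element, rose (log2 fold change 0.54, SE 0.11, adjusted p 0.00939), as did Npas2 (log2 fold change 0.69, SE 0.16, adjusted p 0.0201), a partner of the clock activators. That made 2 higher and 2 lower of 19 members, where 3.08% and 1.83% of all genes were called higher and lower. The change of Per1 was 0.58 (controls), 0.25 (PS) and 0.79 (AS). The calls of Per1, Npas2 and Bhlhe40 were lost without controls, and those of Npas2 and Bhlhe40 also without PS mice. With the myelin score as a covariate in limma, the adjusted p was 0.74 for Per1, 0.50 for Npas2 and 0.71 for Bhlhe40.

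Lists of interferon, inflammation, vascular and stress genes each held between 1 and 3 falls, which only the pooled comparison called. Over all genes 1.83% were called lower. In the list of interferon response and antigen presentation 3 of 23 fell, the peptide transporter gene Tap1 and the interferon-induced genes Gbp3 and Ifit3, and none rose. Tap1 ranged from 248 to 389.6 normalized counts (median 303) with saline and from 194 to 254 (median 231) with DEX with a slight overlap (log2 fold change -0.42, SE 0.083, adjusted p 0.00612). Ifit3 ranged from 332 to 551 normalized counts (median 391) with saline and from 157 to 339 (median 236) with DEX (log2 fold change -0.79, SE 0.18, adjusted p 0.0188), again overlapping slightly. Gbp3 ranged from 144 to 263 normalized counts (median 166) with saline and from 65.9 to 125 (median 113) with DEX (log2 fold change -0.76, SE 0.16, adjusted p 0.0123) and its arms did not overlap, although a single AS saline library stood above the others. Of 16 inflammation and NF-kB genes Tnfrsf1a passed as lower and none as higher (-0.32, adjusted p 0.0731), a call lost when any of 11 libraries was left out. Nfkbia, which holds NF-kB in the cytoplasm and is counted here with the receptor targets, rose (0.60, adjusted p 0.00282). Of 23 endothelial and mural genes 2 fell. Vtn, a matrix protein gene of pericytes, ranged from 1278 to 3035 normalized counts (median 1855) with saline and from 739.6 to 1634 (median 1223) with DEX with overlap (log2 fold change -0.62, SE 0.13, adjusted p 0.0112), and Tek, the endothelial angiopoietin receptor gene, changed by -0.45 (adjusted p 0.058), a call lost without any of 7 libraries. Xbp1, a transcription factor of the unfolded protein response, ranged from 4473 to 6383 normalized counts (median 4748) with saline and from 3519.8 to 4069.8 (median 3710.4) with DEX without overlap (log2 fold change -0.42, SE 0.075, adjusted p 0.00246) and was the 1 called member of 30 chaperone and stress genes.

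Further lists held 1 lower member each. These were Tubb2b among 30 cytoskeletal genes (-0.33, adjusted p 0.0145), Hmgcs1 among 27 of cholesterol and fatty acid synthesis (-0.21, adjusted p 0.0568), Unc5b among 34 of axon guidance (-0.57, adjusted p 0.0657), Ier5 among 15 immediate early genes (-0.35, adjusted p 0.0376) and Cdh10 among 64 cadherins (-0.19, adjusted p 0.0997). Single members of such lists are to be read beside the 1.83% of all genes. The call of Hmgcs1 was lost without any of 5 libraries, that of Unc5b without any of 7, and that of Cdh10 without any of 13 and with TMM scaling or edgeR.

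**Figure D4:**
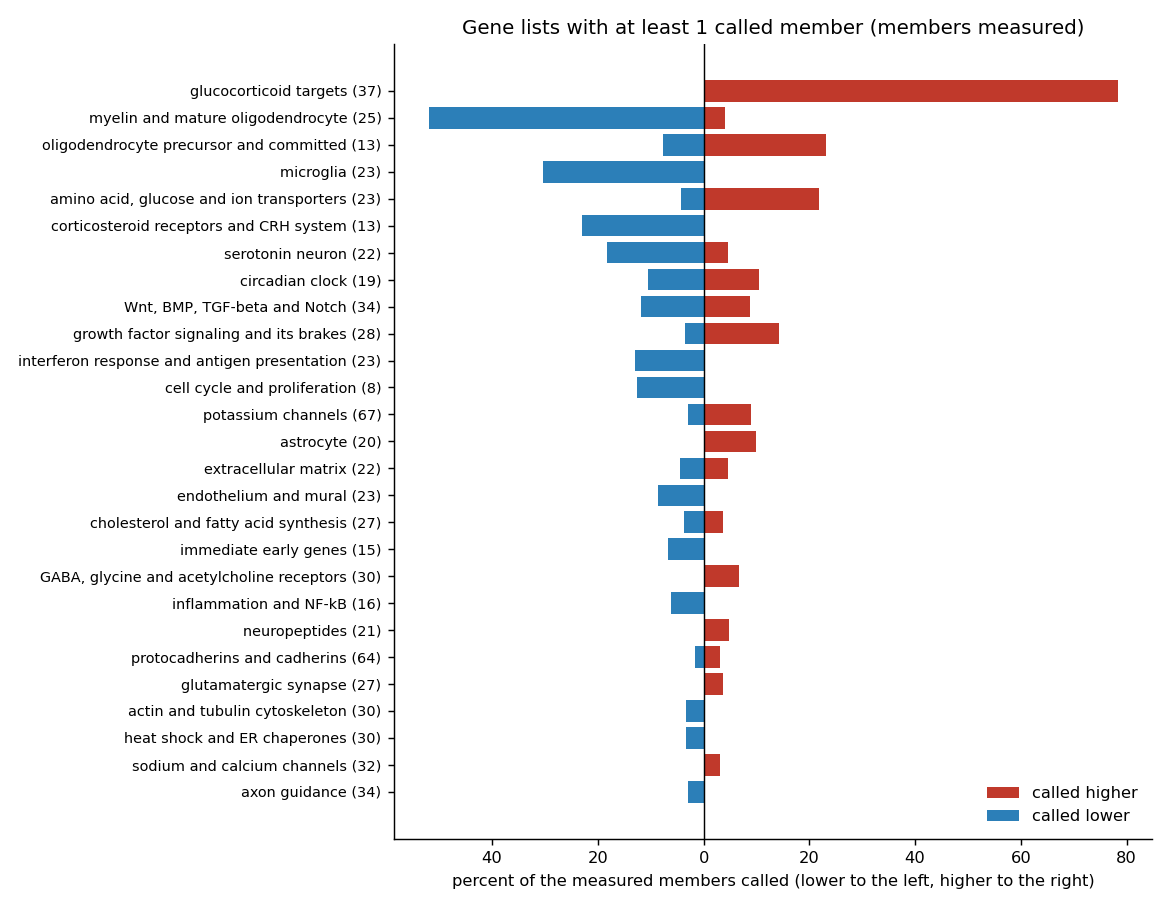
Percent of the measured members of each gene list called higher (red, to the right) or lower (blue, to the left) in the pooled comparison, for the 27 of 38 lists with at least 1 called member and with the number of members measured in parentheses. Glucocorticoid targets stand out on the higher side at 78.4%, and the myelin and microglia lists have the largest lower shares. The lists were chosen with earlier results of these data known.

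On the higher side the known targets of the receptor led by p. Of 37 glucocorticoid targets 29 rose and none fell, with a median of 0.67, and 10 of the 29 were called in no single phenotype. The shares over all genes were 3.08% called higher and 2.01% called higher in no single phenotype. This list was chosen with earlier results of these data known, so its count is no separate check of the treatment. Cdkn1a, a brake on the cell cycle, ranged from 378 to 522 normalized counts (median 458) with saline and from 2457 to 3599 (median 3121) with DEX. Plin4, a coat protein of lipid droplets, ranged from 124 to 228 normalized counts (median 155) with saline and from 2169 to 4421 (median 3724) with DEX, and Zbtb16, a transcriptional repressor, 584 to 1195 (median 798) with saline and 3298 to 4540.3 (median 3951) with DEX. The arms were far apart for all of these (2.77, 4.38 and 2.18, SE 0.083, 0.15 and 0.12). Pla2g3, a secreted phospholipase, was also among the 5 with the smallest p (log2 fold change 1.60, SE 0.089, adjusted p 1.26e-08). By size of change the leading genes included Nxf3 (2.91), Insl6 (3.21) and 9330121J05Rik (2.63), an antisense RNA that cannot be told from its partner gene if strand was not used in counting.

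The 10 higher genes with the smallest p among those that no single phenotype called are given next. Slc25a13, the mitochondrial carrier of aspartate and glutamate, ranged from 152 to 278 normalized counts (median 216) with saline and from 312 to 458 (median 397) with DEX. Prkcd, a protein kinase C, ranged from 592 to 807 normalized counts (median 683) with saline and from 922 to 1336 (median 1008) with DEX. Both were separated between arms (log2 fold change 0.85, SE 0.12, adjusted p 0.000301 and log2 fold change 0.59, SE 0.083, adjusted p 0.000356). Ucp2, a mitochondrial carrier of the uncoupling protein family, ranged from 1379 to 2465 normalized counts (median 1956) with saline and from 2579 to 3435 (median 3001) with DEX, and Lpin1, which makes diacylglycerol for lipid synthesis, 3008 to 4213 (median 3969) with saline and 4874 to 6323 (median 5304) with DEX. These were separated too (log2 fold change 0.66, SE 0.10, adjusted p 0.000491 and log2 fold change 0.46, SE 0.071, adjusted p 0.000717). Ptgds, the prostaglandin D synthase of meninges and oligodendrocytes, ranged from 3702 to 7168 normalized counts (median 5402) with saline and from 7313 to 10041 (median 8249.6) with DEX (log2 fold change 0.71, SE 0.11, adjusted p 0.000621) and moved against the myelin genes. The others were Slc24a4, which ranged from 249 to 492 normalized counts (median 353) with saline and from 570.2 to 1824 (median 879) with DEX (1.41), Setdb2 (0.78), Rln1 (1.44), Rin2 (0.46) and the transcription factor Foxo1 (0.64), the 1 of these 10 whose arms overlapped. Within single phenotypes the smallest adjusted p of these 10 lay between 0.107 and 0.182. With the myelin score as a covariate in limma, Prkcd, Slc24a4, Ucp2, Rin2, Lpin1 and Foxo1 lost the call (adjusted p 0.18 to 0.35). That score differed between the arms, so the part of oligodendrocyte content in these rises was not tested.

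Of 67 potassium channel genes 6 rose and 2 fell, where 3.08% of all genes were called higher and 1.83% lower. The 2 that fell were Kcnk13 and Kcnj4, a low gene (-1.39). The leak channel gene Kcnk1 ranged from 1680.1 to 2196 normalized counts (median 1971) with saline and from 2766 to 3216 (median 2968) with DEX and the voltage-gated Kcna5 487 to 765 (median 713) with saline and 1025 to 1412 (median 1159.5) with DEX. Their arms did not overlap (log2 fold change 0.63, SE 0.06, adjusted p 5.28e-06 and log2 fold change 0.81, SE 0.094, adjusted p 5.28e-05). The leak channel gene Kcnk2 rose less (0.50, adjusted p 0.00102). Of 23 transporters 5 rose, led by the glucose transporter of the blood-brain barrier, Slc2a1, which ranged from 4308 to 6026 normalized counts (median 4831) with saline and from 6506 to 7352 (median 6879) with DEX without overlap (log2 fold change 0.48, SE 0.058, adjusted p 6.74e-05). The others were the zinc carrier Slc39a14 and the amino acid carriers Slc7a5, Slc7a2 and Slc38a2, from 0.48 to 0.25, and the 1 that fell was the lactate carrier Slc16a1 (-0.37, adjusted p 0.0547), and none was lower without any 1 of 3 libraries.

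Astrocyte genes had 2 higher of 20, Fgfr3 and the connexin Gjb6 (log2 fold change 0.57, SE 0.082, adjusted p 0.000355), and none lower, with a list median of -0.034; whether the list differs from the other glial lists was not tested. Growth factor signaling had 4 higher of 28, Fgf2, Igf1r, Pik3r1 and Insr, from 0.87 to 0.27. The call of Pik3r1 was lost without any of 8 libraries and that of Igf1r without any of 3, and 1 member was higher without AS_dex replicate 42 or without either of 2 control DEX libraries. Single members rose among 27 glutamatergic synapse genes (Grin2c, 0.64), 21 neuropeptide genes (Chga, 0.30), 27 genes of lipid synthesis (Acaca, the rate-limiting enzyme of fatty acid synthesis, 0.66), 32 sodium and calcium channels (Scn7a, 0.47) and 22 of the matrix (Lamc1, 0.40), and 2 members among 30 GABA, glycine and acetylcholine receptors (Gabrr2, 1.64, and Gabrb1, 0.43) and 64 cadherins (Cdh19, 0.93, and Pcdh11x, 0.34). Beside these counts, 3.08% of all genes were called higher. Within phenotypes Pcdh11x changed by 0.65 (controls), 0.21 (PS) and 0.10 (AS), and Gabrb1 by 0.73 (controls), 0.15 (PS) and 0.33 (AS). Of the phenotypes, only controls called either gene. The calls of Lamc1, Scn7a, Gabrb1 and Pcdh11x were lost without any of 7, 6, 5 and 7 libraries, that of Chga without PS_sal replicate 68, and those of Scn7a, Gabrb1 and Pcdh11x also with a trend on transcript length removed.

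A last set of lists held no called member, and some of these leaned downward. All 82 cytosolic ribosome genes and all 80 genes of oxidative phosphorylation had a pooled change below 0, with medians of -0.18 and -0.18, and limma called none of them. At an unadjusted p under 0.05 there were 3 and 13, edgeR called 0 and 0, and DESeq2 0 and 1. Without AS_sal replicate 40 the medians were -0.089 and -0.099. These medians were not of one size in the phenotypes. The ribosomal median was -0.23 (controls), 0.053 (PS) and -0.37 (AS), and that of oxidative phosphorylation -0.19 (controls), -0.025 (PS) and -0.34 (AS). In the ribosomal score 1 AS saline library stood at 0.83, where the next highest had 0.36, and the arms overlapped at -0.23 to 0.83 with saline and -0.27 to 0.25 with DEX. In all, 11 of the 38 lists had no called member in limma (0 of 368 genes, 37 at an unadjusted p under 0.05, 0 with edgeR and 7 with DESeq2). The list median was above 0 for choroid plexus (0.33), dopamine neuron (0.28), histone and chromatin (0.042) and mitochondrial genome (6.3e-05). It was below 0 for the others, which were ependymal cilia, GABA neuron, blood, mitochondrial ribosome and proteasome.

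**Figure D5:**
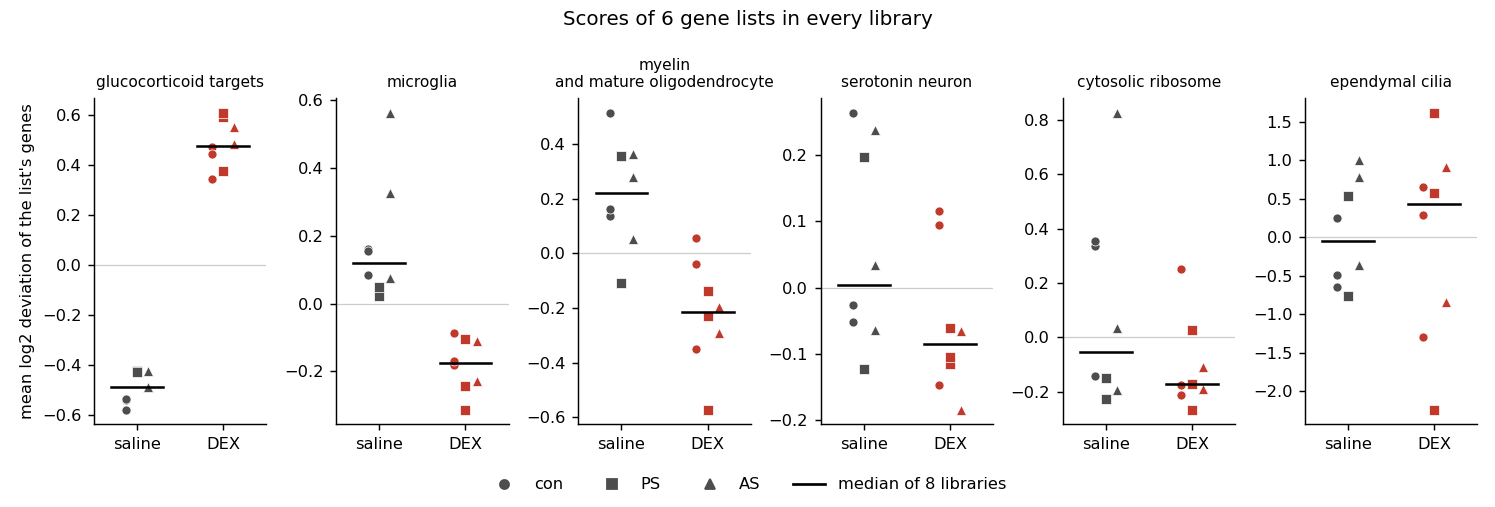
Scores of 6 gene lists (y axes, the mean log2 deviation of the members from their own means over the 16 libraries) in each saline and DEX library, with circles for controls, squares for PS and triangles for AS mice and bars at the medians. The glucocorticoid targets and the microglia list do not overlap between arms, the myelin list overlaps in part, and the serotonin, ribosome and ependymal lists overlap widely.

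The promoters of the called genes were read for letters of known response elements, since the glucocorticoid receptor acts both through its own element and through AP-1 and NF-kB. Of the 14504 genes, 10279 matched a RefSeq promoter by symbol. For each, the 250 bases before the outermost start among these promoters were searched on both strands. The core of the glucocorticoid response element, with the half-sites GNACA and TGTNC separated by 3 bases, was found before 5 of 338 higher genes (1.48%), 0 of 213 lower genes (0%) and 30 of all 10279 (0.292%). The 5 were Kcna5, Map3k6, Mt1, Serpina3n and Suox. The AP-1 letters TGANTCA were found before 16 of 338 higher (4.73%), 13 of 213 lower (6.10%) and 3.78% of all genes, and the kappa B letters, GGG and TTCC separated by 3 bases, before 5.03%, 3.29% and 4.85%. The full cAMP response element, TGACG followed directly by TCA, and the E-box CACGTG were found before 2.96% and 8.88% of higher, 0.939% and 7.51% of lower and 2.78% and 8.48% of all genes. Windows of 4 named genes are shown, the potassium channel gene of the higher group that holds the receptor element, 2 lower genes that hold AP-1 letters and the microglial P2ry12 with kappa B letters. They are from RefSeq on GRCm38.p6, written along the strand of the gene with the matched letters in capitals. The window of Arhgef19 lies before a RefSeq start but inside the gene as GENCODE places it (chromosome 4, 141239499 to 141257564, plus strand).
Kcna5, chr6:126535556-126535662, minus strand, match 46 bases before the start: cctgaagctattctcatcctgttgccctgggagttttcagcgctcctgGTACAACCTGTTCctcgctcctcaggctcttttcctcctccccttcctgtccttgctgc
Tmem88b, chr4:155786048-155786124, minus strand, match 224 bases before the start: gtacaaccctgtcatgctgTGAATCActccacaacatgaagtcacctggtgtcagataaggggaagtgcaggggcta
Arhgef19, chr4:141244990-141245087, plus strand, match 40 bases before the start: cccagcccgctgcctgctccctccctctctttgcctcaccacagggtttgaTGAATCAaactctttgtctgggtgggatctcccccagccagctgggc
P2ry12, chr3:59262986-59263086, minus strand, match 41 bases before the start: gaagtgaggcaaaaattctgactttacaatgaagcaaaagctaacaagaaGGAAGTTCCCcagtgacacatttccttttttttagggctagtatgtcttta
The first of these rose and the other 3 fell after DEX, as given above. A match is a description of letters and not of binding.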

How the data were processed

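PolyA RNA-seq libraries from DRN punches of 16 mice were analyzed. According to the labels and methods, reads were trimmed with fastp 0.20.1, aligned to mm10 with HISAT2 2.2.1 and counted per gene with featureCounts of Subread 2.0. The deposited values are a signal, read counts divided by the DESeq2 1.36.0 size factor of each library by the authors. Whole reads were recovered for 100% of values in every library within a tolerance of 0.01. The study states a minimum of 10 reads in each sample, but 973 of the 14504 genes fell below it in at least 1 library and 496 were at 0 in at least 1. The kit was strand-specific, and whether counting used strand is not given in the sources used here. The authors' comparison tables, which hold log2 fold changes and p-values, were not used.

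Values were analyzed as log2(normalized count + 1) with limma 3.58.1 in R 4.3.3, with treatment and phenotype as terms (12 residual and 4.07 prior degrees of freedom). Contrasts within phenotypes and the interaction came from a fit of 6 groups (10 and 3.88). P-values were adjusted by Benjamini-Hochberg over all 14504 genes and called under 0.1. They measure the spread between these libraries. Scripts were tested on simulated data. Named genes were the 10 lower and 5 higher with the smallest p, the 5 largest changes in each direction at a mean of at least 100, the 10 in each direction with the smallest p among those called in no single phenotype, up to 4 called members with the smallest p from each list, and Nr3c1, Nr3c2 and Tph2. Other list members are given to account for their lists. The members and lists were chosen with earlier results of these data known. Alternatives included the pseudocount, filters, scaling by TMM or quantiles, edgeR 4.0.16 and DESeq2 1.42.0 on the recovered reads, covariates and leaving out each library or phenotype. Gene coordinates are those of the GENCODE annotation on GRCm38, and promoters were matched by symbol. Depths limit the precision of low genes, and counting error is part of the replicate spread. Some list members counted in the text are not reported here by name.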

Additional observations from a re-analysis of the deposited data

Results flagged for a closer look

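In each arm of 8 libraries, single values that stood apart from the rest by Dixon's criterion were sought for the named genes and the list scores. Of 280 arms, 18 held such a value, and chance flags about 1 in 20 groups. No explanation was tested for any of them.

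Among saline libraries, AS library 40 stood apart in 6 genes. It was lowest for Lpin1 at 3008 normalized counts and for Npas2 at 74.1, and highest for Insl6 at 81.5, Gbp3 at 263, Vtn at 3035 and Cdh10 at 2251. Of the control libraries, 1 was lowest for Kcnk13 at 188 and for Htr1d at 600.2, and another was lowest for Vcan at 630.3 and Gabrb1 at 8369.5. PS library 68 had the lowest score of the neuropeptide list at -0.97.

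Among DEX libraries, 1 control library was highest for the oligodendrocyte connexin Gjb1 at 406 and for Kcnk13 at 216, and lowest for Plin4 at 2169 and for the score of the glutamatergic synapse list at -0.21. PS library 64 was lowest for Opalin at 137 and Insc at 31.7. AS library 38 was highest for Nkx6-2 at 1165. For Gjb1, Nkx6-2 and Kcnk13 the value that stood apart was the one that brought the arms to overlap.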

How the results depend on the processing

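With the myelin score as a covariate 156 genes were called in place of 711, 124 higher, 32 lower and 84 in no single phenotype. With the serotonin score as a covariate 290 were called in no single phenotype, and the change of Tph2, itself in that score, turned from -0.16 to 0.024 (adjusted p 0.988). Without controls, PS or AS mice, 297, 360 and 403 genes were called, 212, 249 and 286 of them higher and 85, 111 and 117 lower, with 213, 247 and 249 in no single phenotype. Library weights gave 425 lower genes and 313 in no single phenotype, and an adjusted p under 0.05 gave 169 lower. With each library left out in turn, the count of lower genes ran from 164 (without AS_dex replicate 42) to 286. Without 1 of the control DEX libraries there were 174. Other alternatives, among them pseudocounts of 0.1 and 10, TMM and quantile scaling, edgeR (708 called) and DESeq2 (982 called), moved these 4 counts by less than 1.5 times. Of the named genes called, 61 lost the call with the myelin score as covariate, 39 without a phenotype, 19 without at least 1 library and 17 under another alternative. Depth limited low genes most. No paired analysis was possible because the replicate numbers in the labels differ between the groups.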
